A study of Mus musculus with 6 samples.

Results

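The nuclear factor I (NFI) family comprises Nfia, Nfib, Nfic and Nfix, 4 genes of transcription factors. Its regions are the entries of 3 deposited lists of TERT-bound chromatin whose gene name, given by the nearest transcription start site, is one of these genes. They number 24 of 41527 regions: 14 carry the name Nfia, 7 Nfib, 3 Nfix and 0 Nfic. The members were chosen by their family name with their region counts in these lists already known, so those counts are given as a description, with no test. At least 1 region of any list carried the name of 59.1% of protein-coding genes.

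The protein mapped was TERT, which carries the catalytic activity of telomerase. The assay was CUT&Tag, in which an antibody brings a transposase to the bound protein and the DNA beside it is cut, tagged and sequenced. The cells were primary neurons cultured from the cortex and hippocampus of C57BL/6 mouse embryos of day 15 to 18. Of the 6 samples, 3 were exposed for 24 h to BIBR1532, a synthetic inhibitor of telomerase, at 2 µM, and 3 to the vehicle, dimethyl sulfoxide, which one label field calls untreated. The libraries of each condition were combined before the lists were made, so each condition is 1 pooled measurement without a spread between replicates. The lists do not give sequencing depth. No genetic change is labelled in either group, and cultures of this kind can also hold glia, whose share was not measured.

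The BIBR1532 list (16153 regions) holds sites where the pool of treated libraries had the higher signal, the vehicle list (18562) those where the vehicle pool did, and the common list (6812) sites shared by both. The first 2 are called condition-specific here. Which list belongs to which condition was read from the order of conditions in the names of the lists, so the direction is likely and not stated outright. Each region carries the authors' score, which in the comparison step of MACS2 grows with the difference between the pools, although the files do not describe it. Of the condition-specific regions, 48.6% sit at a single score in their list, 6.34 in the BIBR1532 and 5.19 in the vehicle list, and are called tied below. Coordinates are those of mm10.

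NFI proteins bind DNA as homodimers or heterodimers through a conserved amino-terminal domain, and their site is a palindrome made of the core TTGGC and its reverse complement GCCAA, 5 bases apart. The core alone can be bound as well. In the developing forebrain they drive radial glia out of self-renewal and towards neuronal and glial differentiation. Nfia starts astrocyte formation and, with Nfib, is needed for the corpus callosum. Nfix acts in the hippocampus and in adult neural stem cells, and Nfic is best known for tooth root formation.

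Counted by name, the family was split between the conditions. It had 10 BIBR1532, 13 vehicle and 1 common regions. The BIBR1532 share of its condition-specific regions was 43.5% (exact 95% interval 23.2 to 65.5, counting error only), against 46.5% over all condition-specific regions, of which the vehicle list held 53.5%. Members leaned different ways: Nfia had 3 BIBR1532 and 10 vehicle regions, Nfib 5 and 2, and Nfix 2 and 1. The Nfix counts were even, at 1 and 1, with a score minimum of 2 and after merging within 1 kb. The intervals of the BIBR1532 share were 5.04 to 53.8% for Nfia, 29.0 to 96.3% for Nfib and 9.43 to 99.2% for Nfix. All of them include 46.5%, and whether the members differ was not tested. The share of the family moved to the other side of 50% in 3 settings. Without Nfia it was 70%, from 7 BIBR1532 and 3 vehicle regions. Without tied regions it was 58.3% (7 and 5), against 48.2% over all regions without tied ones. Within 10 kb of a start site it was 66.7% (2 and 1), and all of these were Nfix regions.

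**Figure D1:**
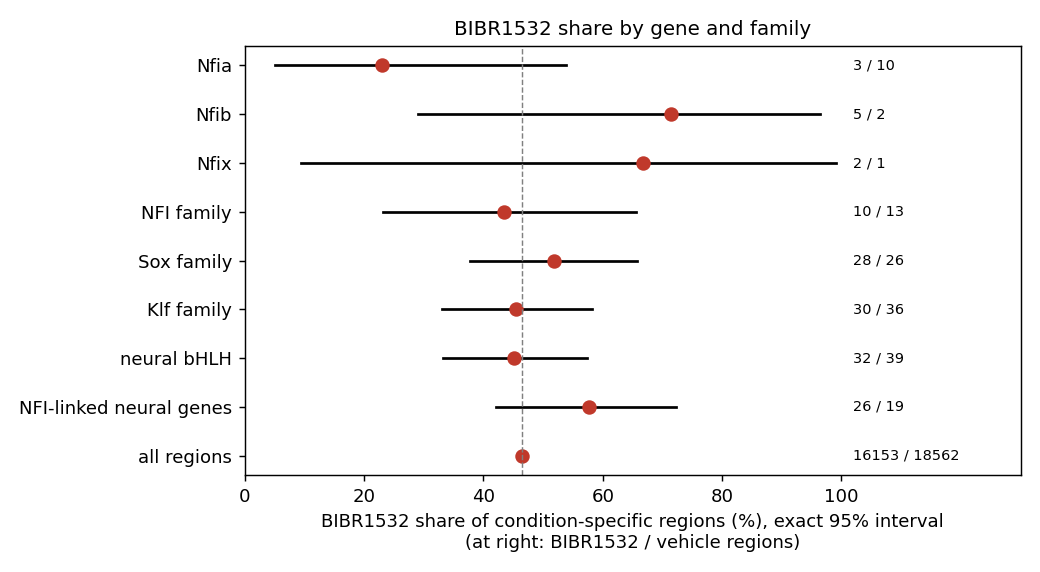
BIBR1532 share of condition-specific regions (x axis, %) for the NFI members with regions, the NFI family, other gene lists and all regions (y axis). Points are shares, bars exact 95% binomial intervals, the dashed line is the 46.5% of all regions, and the numbers at right give BIBR1532 and vehicle regions. Nfia lies left of the line and Nfib right of it, and both bars cross it.

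The family had 1 common region, at Nfia, which was not at a promoter. It made up 4.17% of the family's regions, against 16.4% over all regions. Counted by gene, 1 of the 4 members had a common region and 0 of 4 a common promoter region, against 23.9% and 14.2% of protein-coding genes, so the members' counts are near the background. Promoter regions of any list numbered 2 of 24 in the family, both BIBR1532 regions of Nfix, against 17% of all regions. That 17% includes the common list, of which 51.9% were promoter regions. Among condition-specific regions alone, promoters were 8.70% in the family and 10.2% over all, so the family was near the background. Introns held 18 of the 24 (75%), against 39.7% of all regions, and 4 were intergenic. The median distance to the start site was 64.5 kb in the family and 17.7 kb over all regions. Among condition-specific regions alone these medians were 69.0 and 25.2 kb, and introns held 78.3% and 43.9%. Widths ran from 125 to 791 bp, with a median of 224.5 bp in the family and 247 bp over all regions, and 3 of the 24 lay in annotated repeats (12.5%, against 21.9%).

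**Figure D2:**
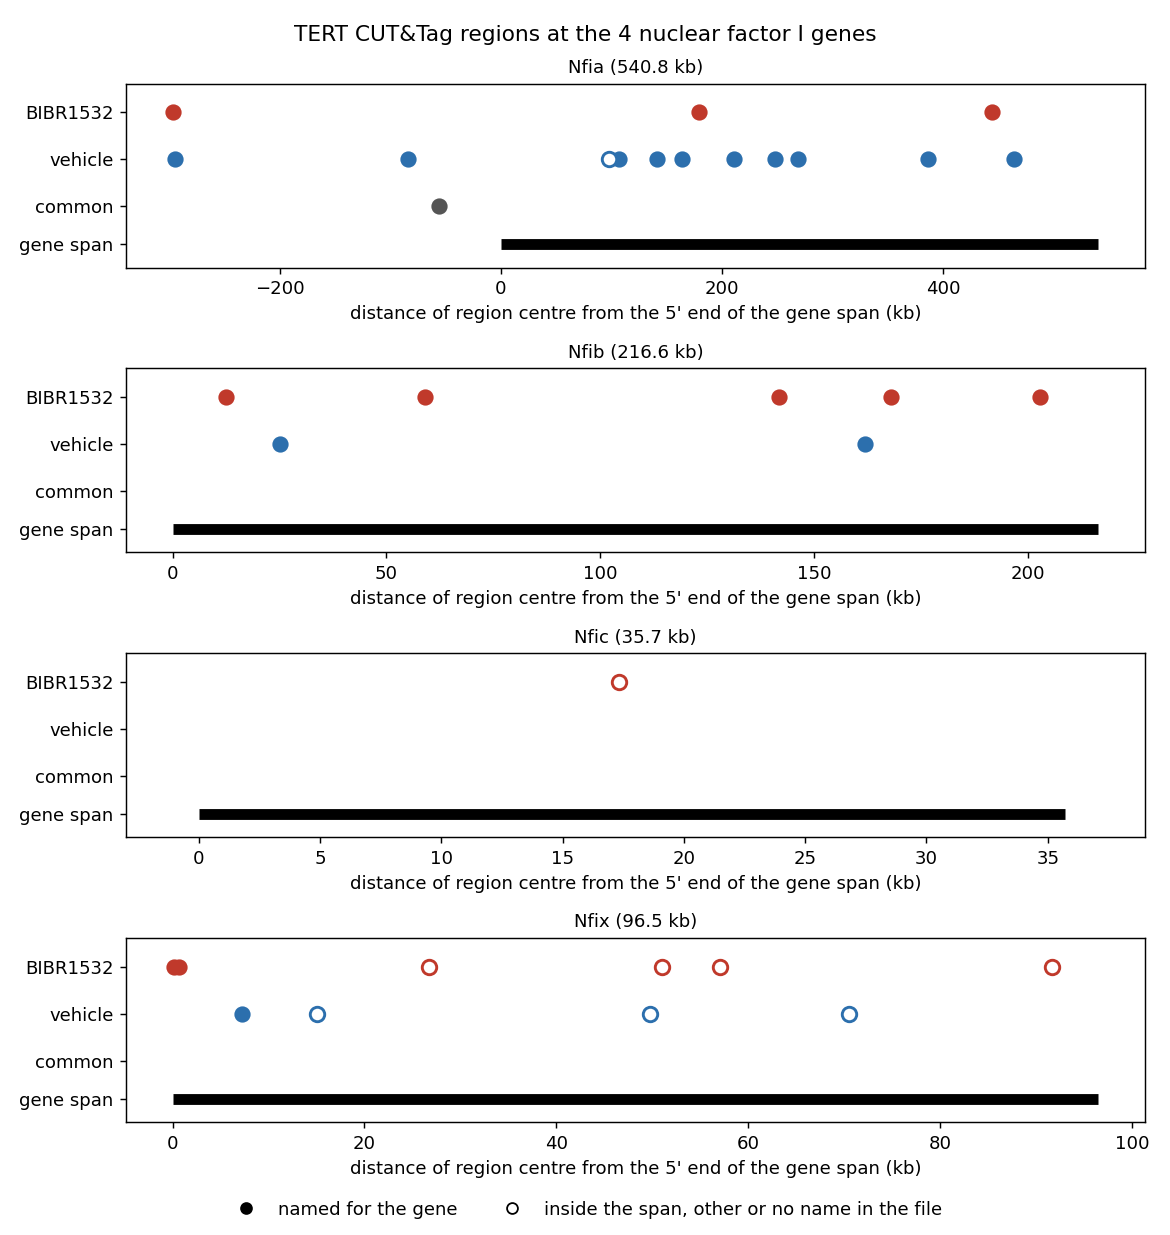
Region centres along the 4 genes, in kb from the 5′ end of the RefSeq gene span (black bar), with a row for each list. Filled points are regions named for the gene, open points lie inside its span under another name or none. Vehicle regions crowd Nfia, BIBR1532 regions run along Nfib, Nfic has 1 open point and most points of Nfix are open.

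Nfia, on the plus strand of chromosome 4 (97578066 to 98118876, 540.8 kb), had the most regions, most of them in the vehicle list. Its 10 vehicle regions exceeded its BIBR1532 regions by 7, and 0.0959% of protein-coding genes had a vehicle excess of that size or more. At least 10 vehicle regions were found at 0.164% of protein-coding genes. Both shares are over protein-coding genes of all lengths and count tied regions. Of the 13 condition-specific regions named for Nfia, 7 were tied. Without tied regions the gene had 2 BIBR1532 and 4 vehicle regions. Nfia is a very long gene, and long genes collect more regions. Its span held 11 condition-specific regions, a number reached by 0.662% of protein-coding genes. Per length, that was 2.03 condition-specific regions per 100 kb, against a median of 1.51 over protein-coding genes of at least 100 kb, and 66.6% of those genes had a lower value.

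Of the 10 vehicle regions of Nfia, 6 lay in its introns 1 and 2. A region at chr4:97684942-97685707 in intron 1 of 10 was the widest, at 766 bp, with a score of 5.24. In the same intron followed the tied region at chr4:97718882-97719351 (470 bp) and a region at chr4:97741441-97741849 that scored 5.87 and lay in an L1MEg element, a relic of a LINE retrotransposon. These 3 lie between the start of the long transcript and the start site of a shorter one at 97777626. Past the second start site came 3 vehicle regions in intron 2 of 9. The one at chr4:97826093-97826399 had the highest score of the gene, 7.90, above 91.5% of the vehicle list. The other two, at chr4:97788873-97789102 and chr4:97846595-97846723, were tied. Farther in, tied vehicle regions stood at chr4:97964054-97964249 in intron 3 of 9 and at chr4:98042726-98042871 in intron 7 of 10, the second in a simple (CA)n repeat. The 8 vehicle regions in the Nfia span thus ran from 107.3 to 464.7 kb past the start of the gene span, and 2 of them lay past intron 2. A ninth vehicle region in the span, at chr4:97675339-97675819 with a score of 6.28, is named for the non-coding gene E130114P18Rik, whose start site is nearer.

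BIBR1532 regions in the Nfia span numbered 2. The region at chr4:97757450-97757669 in intron 1 scored 2.08, above 11.5% of the BIBR1532 list. The region at chr4:98022291-98022468 in intron 6 of 9 scored 7.53, above 81.5% of it. Both overlap long non-coding RNA genes in RefSeq, Gm38709 and Gm34218, as the tied vehicle region at 97846595 does Gm19417.

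The other 4 Nfia regions lay upstream of the gene. About 300 kb away, a tied BIBR1532 region at chr4:97280641-97280834 and a vehicle region of score 7.64 at chr4:97282979-97283252 were separated by 2144 bp. They were the closest pair of unlike condition-specific regions under a member's name. A tied vehicle region at chr4:97493797-97494028, 88.0 kb upstream, fell in an RMER19A element of the ERVK class of endogenous retroviruses. The common region, at chr4:97521956-97522129, was 59.9 kb upstream, inside the annotated pseudogene Gm12696, with a score of 0.0285. In the common list a low score marks near-equal pools, and 16.9% of common regions scored lower. No region overlapped the RefSeq promoter window of Nfia, the 250 bases before and 50 after its start, and the closest to it was this common region.

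Nfib, on the minus strand of chromosome 4 (82290173 to 82506751, 216.6 kb), leaned to the BIBR1532 list. All 7 of its regions were intronic and inside the gene. Its excess of 3 BIBR1532 over vehicle regions was matched or passed at 1.86% of protein-coding genes, and its 7 condition-specific regions at 3.04%. As for Nfia, these shares are over genes of all lengths and count tied regions, which 4 of the 7 were. The span held 3.23 condition-specific regions per 100 kb, a value above that of 86.1% of protein-coding genes of at least 100 kb.

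From the start of the gene inwards, each vehicle region of Nfib had a BIBR1532 region on either side. The first region, 11.6 kb in, was a tied BIBR1532 region at chr4:82494102-82494259 in intron 2 of 11. A tied vehicle region followed at chr4:82481606-82481834 in the same intron, and both overlap the RefSeq RNA gene 2310067E19Rik. The third region of intron 2, at chr4:82447510-82447742, was a BIBR1532 region with a score of 7.18. A BIBR1532 region of score 7.32 stood at chr4:82364854-82365021 in intron 3, the highest score of the gene and above 80.1% of the list. Intron 6 held a tied vehicle region at chr4:82344567-82344893 and a tied BIBR1532 region of 449 bp at chr4:82338360-82338808, with 5.758 kb between them. The last one, a BIBR1532 region of 791 bp at chr4:82303415-82304205 in intron 8 of 8, was the widest of the family and scored 2.28. Both vehicle regions of Nfib were tied, so without tied regions the gene kept 3 BIBR1532 and 0 vehicle regions, whereas Nfia kept 2 and 4. The nearest common region was 408.8 kb from the gene.

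**Figure D3:**
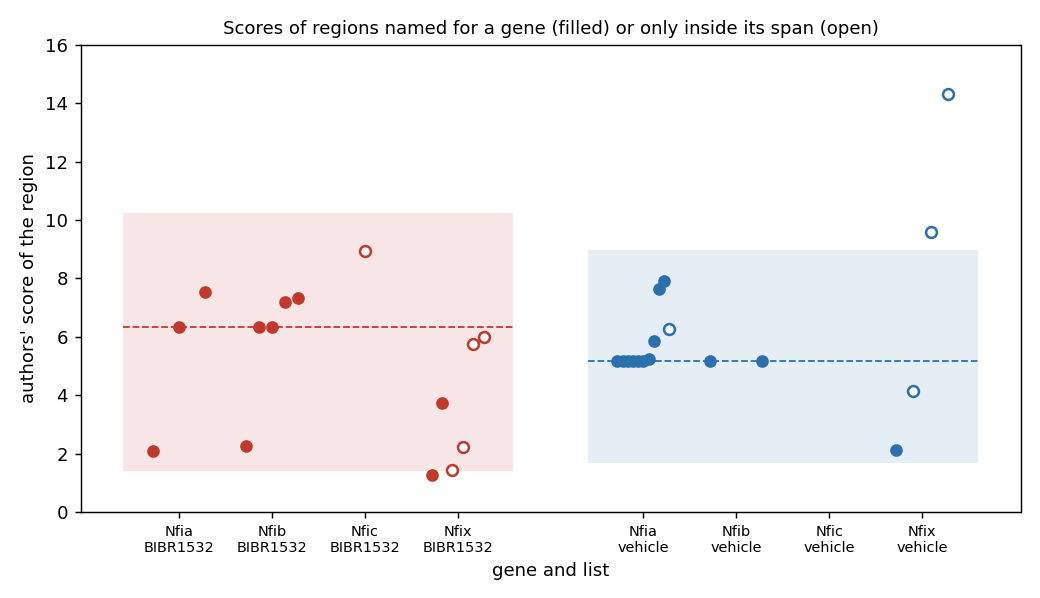
Authors' score (y axis) of each BIBR1532 region (left) and vehicle region (right) at the 4 genes (x axis), filled where named for the gene and open where only inside its span. Shading runs from the 5th to the 95th percentile of the list and the dashed line is its median; scores of the lists are not on 1 scale. The row of equal vehicle scores at Nfia is the tied value of 5.19, and the highest point is an Nfix region at 14.3.

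Nfix, on the minus strand of chromosome 8 (84704712 to 84801238, 96.5 kb), held more regions than its name in the files shows. Named for it were 3: BIBR1532 regions at chr8:84800499-84800653 and chr8:84801009-84801139, both of the promoter class, and a vehicle region at chr8:84793924-84794048 in intron 1 of 8. The promoter regions were 355 bp apart, lay 208 and 706 bp upstream of the start site used by the annotation, and scored 3.76 and 1.29. Both still lay inside the RefSeq gene span, with centres 0.662 and 0.164 kb from its 5′ end. At least 1 BIBR1532 promoter region was found at 6.89% of protein-coding genes and at least 2 at 0.375%. These shares count unmerged regions, and after merging within 1 kb the 2 promoter regions of Nfix count as 1. The scores were low in the list: 17.5% and 0.526% of BIBR1532 regions scored lower. The vehicle region scored 2.14, and 7.41% of its list scored lower.

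A further 5 regions in Nfix have an empty gene name in the files, but carry RefSeq transcripts that belong to Nfix. They were among 66 unnamed regions of the 3 lists, all of which matched a RefSeq gene by transcript. The unnamed BIBR1532 regions were chr8:84774402-84774591 in intron 1 of 8, with a score of 5.99, and chr8:84750163-84750301 and chr8:84743953-84744380 in intron 2, with scores of 2.22 and 5.76. The unnamed vehicle regions had high scores. The one at chr8:84786086-84786236 in intron 1, 151 bp wide, scored 14.3, so that 0.232% of the vehicle list scored as high or higher. The one at chr8:84751416-84751535 in intron 2 scored 9.60, a level reached by 3.25% of the list, and stood 1.114 kb from a BIBR1532 region. With these, Nfix had 5 BIBR1532 and 3 vehicle regions, and the family 13 and 15 with a BIBR1532 share of 46.4% (exact interval 27.5 to 66.1).

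Inside the gene lay 2 more that are named for Lyl1, the neighbouring gene of a blood-forming transcription factor. They are a BIBR1532 region of score 1.44 at chr8:84709409-84709669 in intron 8 and a vehicle region of score 4.14 at chr8:84730531-84730871 in intron 2. The Nfix span therefore held 6 BIBR1532 and 4 vehicle regions, 10.4 condition-specific regions per 100 kb. The median over 4945 protein-coding genes of at least 50 kb was 1.53, and 0.0607% of them, Nfix included, reached its value, which was the third highest. Of its 10 regions 0 were tied, against 48.6% of all condition-specific regions. Without tied regions Nfix ranked at place 1 of these genes, with 10.4 per 100 kb against a median of 0.575. These ranks were looked up after the values were seen and compare pooled lists, so they have no replicate check. The span held 0 common regions.

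Several start sites of Nfix lie inside its first intron, and the RefSeq promoter windows (GRCm38.p6, the mm10 assembly) of those nearest to the unnamed BIBR1532 region at 84774402 are shown because that region lies between them. Its gaps to the windows were 0.742 kb to the second, 1.188 kb to the first and 1.277 kb to the third. Each window holds 250 bases before and 50 after the start, read 5′ to 3′ on the minus strand as in the RefSeq table, with the NFI core (TTGGC, or GCCAA on the other strand) in capitals.
Nfix chr8:84775779-84776078: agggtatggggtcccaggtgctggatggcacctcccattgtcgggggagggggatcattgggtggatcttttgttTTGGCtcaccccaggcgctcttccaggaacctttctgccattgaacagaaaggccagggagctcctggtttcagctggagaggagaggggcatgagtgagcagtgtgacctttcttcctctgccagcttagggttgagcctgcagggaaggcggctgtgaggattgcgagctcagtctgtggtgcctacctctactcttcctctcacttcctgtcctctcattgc
Nfix chr8:84773361-84773660: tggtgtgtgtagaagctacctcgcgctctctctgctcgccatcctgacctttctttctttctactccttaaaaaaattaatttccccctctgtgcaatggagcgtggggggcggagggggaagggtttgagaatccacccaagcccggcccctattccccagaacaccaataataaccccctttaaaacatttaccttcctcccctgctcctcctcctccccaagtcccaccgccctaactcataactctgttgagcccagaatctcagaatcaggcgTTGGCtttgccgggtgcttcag
Nfix chr8:84772826-84773125: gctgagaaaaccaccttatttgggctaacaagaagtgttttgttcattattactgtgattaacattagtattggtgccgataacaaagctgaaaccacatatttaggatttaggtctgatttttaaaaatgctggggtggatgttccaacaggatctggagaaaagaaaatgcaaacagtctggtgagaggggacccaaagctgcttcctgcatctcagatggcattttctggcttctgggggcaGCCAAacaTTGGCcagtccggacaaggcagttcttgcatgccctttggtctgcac

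All 3 windows hold the core, and the last holds it 2 times, on opposite strands, beside the start site. The RefSeq table gave 6 windows for the family: 4 for Nfix, 1 each for Nfia and Nfic. Windows of Nfib and of the Nfix start site beside the named promoter regions were not used here, so the counts below do not cover them. The core was in 3 of the 6, against 46.7% of all 32851 windows, so its presence is common. The full palindrome, which contains the core on both strands, was in 0 of the 6 and in 0.0365% of all windows. The Myc-family E-box CACGTG was in 0 of the 6 and in 7.15% of all, and the telomeric repeat TTAGGG, 2 times in tandem, in 0 of the 6 and 0.0122% of all. Both strands were searched in each case. The windows at Nfix had a GC content of 44.3 to 57.3% and that of Nfic 63%, against a median of 52.7% over all windows.

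**Figure D4:**
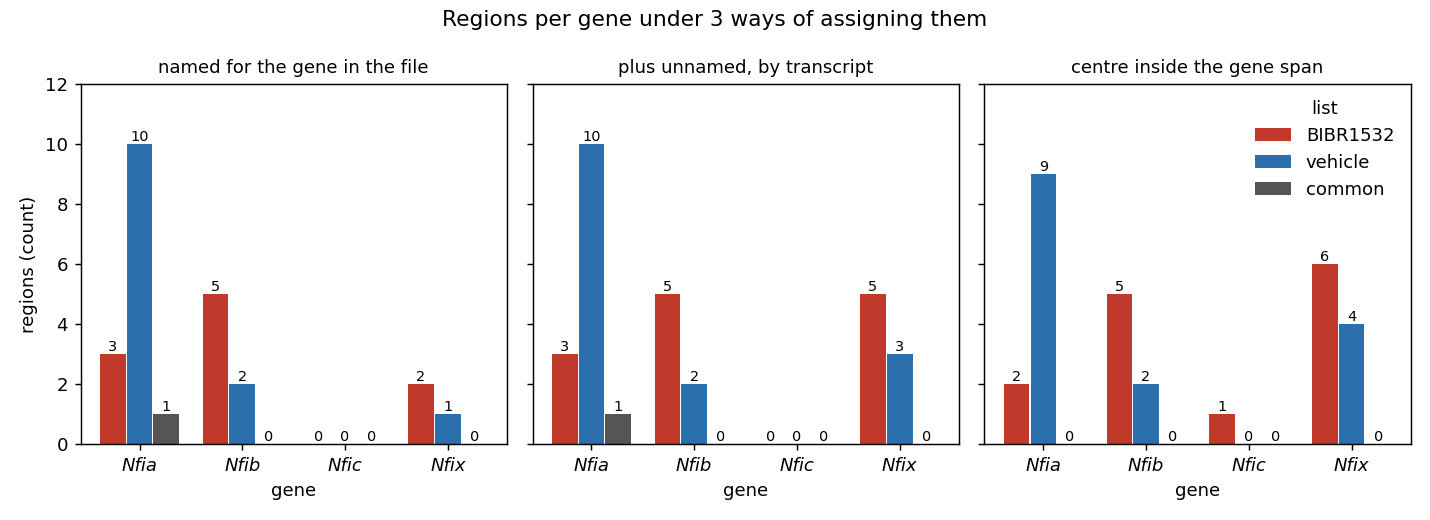
Number of regions (y axis) per gene and list under 3 ways of assigning them: by the name in the file, by name plus unnamed regions matched by transcript, and by the region centre inside the RefSeq gene span. Nfix has 3, 8 and 10 regions in the panels from left to right, while Nfia stays mostly in the vehicle list and Nfib mostly in the BIBR1532 list.

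Nfic, the shortest member (chromosome 10, 81396191 to 81431919, 35.7 kb, minus strand), was named by no region, and 40.9% of protein-coding genes also lacked one. Its span held 1 region, a BIBR1532 region of 140 bp at chr10:81414543-81414682 in intron 2 of 8, named for the microRNA gene Mir1191b, which lies inside Nfic. That region scored 8.95, a level that 7.89% of the BIBR1532 list reached. The closest common region was at the promoter of Dohh, a hydroxylase gene, 11.8 kb from the gene, and the closest vehicle region at the promoter of Fzr1, a cell-cycle ubiquitin ligase activator, 17.4 kb away. Within 100 kb of the Nfic span were 5 BIBR1532, 7 vehicle and 6 common regions, against 2, 11 and 1 around Nfia, 9, 3 and 0 around Nfib, and 11, 13 and 3 around Nfix. These counts include the spans themselves, which differ in length, so they do not compare densities.

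Counted by gene span, the family had 14 BIBR1532 and 15 vehicle regions, of which 27 were intronic. The direction of Nfia, Nfib and Nfix was the same by name and by span. Nfia had 3 and 10 by name and 2 and 9 by span. Nfib had 5 and 2 under both, and Nfix 2 and 1 by name and 6 and 4 by span. Nfic had 0 regions by name and 1 BIBR1532 region by span. The totals differed most for Nfix, most of whose regions have their nearest start site in Lyl1 or in transcripts without a gene name in the files.

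Among the genes most like Nfia in their numbers of BIBR1532, vehicle and common regions were Tafa5, a secreted brain protein gene (5, 10 and 1), and Csmd1, a very long gene of a complement regulator (4, 11 and 1). Each differed from it by 2 regions summed over the 3 lists. A total of 4 genes stood at that smallest difference, and these were the nearest of them in length. For Nfib, 14 genes had the same counts of 5, 2 and 0, and Ptchd4 and the kinase gene Sgk1 were the nearest of them in length. With 3 lists to compare over, such likeness is a count only.

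NFI genes had a longer median length than the Sox, Klf and neural bHLH families of transcription factors, and a larger share of their regions was intronic, a difference that was not tested. Promoters were 8.33% of NFI regions, 13.3% of Sox, 17.3% of Klf and 12.8% of neural bHLH regions, and introns 75%, 33.3%, 20% and 29.5%. The median gene length was 157 kb for NFI, against 4.79, 11.4 and 3.13 kb in these families. A common promoter region was found at 0 of 4 NFI, 3 of 19 Sox, 7 of 17 Klf and 3 of 27 neural bHLH genes. The BIBR1532 shares of condition-specific regions were 43.5% for NFI, 51.9% for Sox, 45.5% for Klf and 45.1% for neural bHLH genes, all with intervals that include 46.5%. Single genes of these families also leaned one way or the other. The pluripotency factor gene Klf4 had 3 BIBR1532 and 9 vehicle regions and Sox11 2 and 7, while Sox6 had 6 and 3 and Tcf4 9 and 6. Klf12 had 8 and 11, and Sox5 4 and 7.

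A list of 18 genes that act upstream or downstream of NFI factors in neural development had 26 BIBR1532, 19 vehicle and 8 common regions over 14 named genes. The BIBR1532 share was 57.8% (exact interval 42.2 to 72.3), against 46.5% over all condition-specific regions. More BIBR1532 than vehicle regions stood at 7 genes, more vehicle regions at 5, and 6 were even or had none. The N-cadherin gene Cdh2 had 8 BIBR1532 and 6 vehicle regions. The astrocyte glutamate transporter gene Slc1a3 had 4 and 3, as had the Wnt ligand gene Wnt7a, which also had 1 common region. Common regions were 2 each at Bbx, an HMG-box gene, and at Ezh2, the polycomb methyltransferase gene that NFIB represses in mouse cortex, and 1 at Apcdd1, a Wnt inhibitor gene. A common promoter region was found at 4 of the 18 genes of the list and at 0 of the 4 NFI genes. The share over protein-coding genes was 14.2%, and the difference was not tested.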

How the data were processed

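Regions of TERT CUT&Tag signal were read from 3 deposited lists. Per the labels' processing notes, CASAVA 1.8, Bowtie2, Picard and MACS2 2.1.2 were used on mm10. Per the file headers, pooled triplicates were compared in a step named bdgdiff and annotated with annotatePeaks.pl, which assigns each region to its nearest start site. The deposited score is the authors' own value; how the pools were scaled is not stated in the labels or headers. It served to describe and rank regions within a list. The deposited distance to the start site was used as given.

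Both condition-specific lists were decoded from a 7-bit text encoding. Autosomes 1 to 19 and both sex chromosomes were kept. Gene spans, transcripts and promoter windows came from RefSeq tables of GRCm38.p6, and all 4 members matched by gene ID. Genes were counted by gene ID over 21887 protein-coding genes, without the 66 unnamed regions. Region sequences were not analysed here.

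Each condition is 1 pooled measurement, so there is no test across samples, and intervals are exact (Clopper-Pearson) binomial intervals at 95% that cover counting error only. The members, gene lists and rules were chosen with earlier results of these data known. All members were named; from each other list the rule took the 3 genes with most condition-specific and the 3 with most common regions, and as most like a member with at least 5 regions the 2 genes of smallest summed count difference, then of nearest length. An item that this rule takes is not reported here. The matching of unnamed regions, the density ranks of Nfix and the comparison of Klf4, Sox11, Sox6 and Tcf4 by direction were chosen after seeing the data. Alternatives were score minimums, tied scores, width, merging, gene spans and distances. Counting was tested on simulated data. Software was scipy 1.17.1, numpy 2.4.6, pandas 2.3.3 and matplotlib 3.10.9 under Python 3.11.15.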

Additional observations from a re-analysis of the deposited data

How the results depend on the processing

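The BIBR1532 share of the family's condition-specific regions (43.5%, 10 BIBR1532 and 13 vehicle regions) stayed below 50% at score minimums of 2 (40.9%, against 45.4% over all regions) and 3 (36.8%, against 44.9%), after merging within 1 kb (40.9%), inside the gene spans (48.3%), within 100 kb of a start site (35.7%), in base pairs (41.1%), and without Nfib (31.2%) or Nfix (40%). It passed 50% without tied scores (58.3%, against 48.2% over all regions) and without Nfia (70%). Within 10 kb of a start site it was 66.7%, from 2 and 1 regions that were all of Nfix. The share was 50% among regions of at least 500 bp, with 1 region each, against 47.6% over all such regions. Inside the gene spans, the 48.3% was below 50% but above the 46.5% over all condition-specific regions. No share over all regions is given for merging, gene spans or distances. In base pairs, all condition-specific regions covered 6616024 bp in the BIBR1532 list and 7455998 bp in the vehicle list. Of the counts, vehicle regions fell to 5 without tied scores, by construction. At 500 bp or more 1 BIBR1532, 1 vehicle and 0 common regions remained, within 10 kb 2, 1 and 0, within 100 kb 5 BIBR1532 regions, and inside the gene spans 0 common regions. With 10 kb added on each side, Nfic had 1.79 condition-specific regions per 100 kb in place of 2.80. Among regions under a member's name, unlike neighbours within 5 kb numbered 1, and within 1 kb 0. With unnamed regions added, Nfix also had an unlike pair 1.114 kb apart. No paired analysis was possible because the libraries were pooled in the deposited lists, and for the same reason no sample could be left out. Depth is unknown from the lists, so a gene without a region cannot be told from one below detection.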
